A study of Mus musculus with 24 samples.

Results

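The 10 genes described here are genes of mast cells and other myeloid cells, read on arrays of a leukemia that had been dormant in mice and of its parental line. They are *Il1rl1*, *Cd200r2*, *F13a1*, *Gzmb*, *Cpa3*, *Hdc*, *Gata2*, *Kit*, *Ms4a2* and *Fcer1a*, of 22911 gene symbols on the array. Every probe whose RefSeq transcript belongs to them was taken, which gave 15 of 56605 probes. The genes were chosen by a reading of the same comparison of the dormant with the parental leukemia, so their values in that comparison are a description with no test.

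Total RNA of mouse cell lines was labelled with Cy3 and hybridized to 24 one-colour expression arrays, where each spot lights up in proportion to the amount of its transcript. The leukemia lines were M0-p20 (4 arrays) and J365-p20 (3 arrays). M0-p20 is read here as the parental DA1-3b leukemia, and J365-p20 as the dormant leukemia cells that the study isolated from mice with residual disease after immunotherapy, at about a year of dormancy (the day in the name J365), and amplified in vitro. The titles do not name DA1-3b, and this reading rests on the single leukemia comparison of the study. The 17 melanoma arrays held B16-M (3), the parental line, B16-D (4), the dormant line, and the second-generation dormant lines B16-D-733 (4), B16-D-735 (3) and B16-D-739 (3), derived in brain. The growth conditions given in the labels are those of the melanoma cells. Nothing in the labels says that replicates were separate cultures, so the p-values measure only the spread between these arrays, which may be technical.

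Values are log2 signals after subtraction of the array's own 75th percentile, so that a value is a level of one probe and a difference is a log2 fold. Probes differ in how brightly they report the same amount of RNA, and levels of different genes are therefore not set against each other. A probe counted as measured on an array where the scanner software called it well above the background. Between 49.55% and 54.54% of spots were so on the 7 leukemia arrays. On the melanoma arrays the share was 45.96% to 55.77%, apart from B16-D replicate 2, where it was 90.35%, and results that rest on that array are given with and without it. Correlations between leukemia arrays over tested genes were 0.9613 to 0.9863, and the arrays numbered 0 of both lines shared deviations (correlation of residuals 0.51), which is described where it touches a gene. Those arrays were also on the same slide. J365-p20 replicate 3 was closer to M0-p20 replicate 1 of its slide (0.9808) than to J365-p20 replicates 0 and 1 (0.9749 and 0.9687). J365-p20 replicate 1 had 0.9857 with M0-p20 replicate 2 of its slide and 0.9855 with J365-p20 replicate 0. J365-p20 replicate 0 had 0.9774 and 0.9703 with the M0-p20 arrays of its slide. The main fit held no term for the slide.

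Mast cells are tissue cells of the myeloid lineage whose granules hold histamine, proteoglycans and proteases. They are armed through the high-affinity receptor for IgE, which is built of an alpha chain (*Fcer1a*) that binds IgE, a beta chain (*Ms4a2*) and a gamma chain (*Fcer1g*) that signal. Their growth depends on the receptor KIT, their identity on transcription factors such as GATA2 and MITF, and IL-33 activates them through ST2, the product of *Il1rl1*. Basophils share many of these genes but are short of KIT, and IL-3 is the growth factor of both cell types in culture.

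GATA factors such as GATA2 bind short sites before many mast cell genes. The 250 bases upstream of each start, from RefSeq on GRCm38.p6 and written 5′ to 3′ on the strand of the gene, were searched for AGATAA and TGATAA and for their reverse complements TTATCT and TTATCA. The matches in the windows shown do not overlap. The windows of *Il1rl1*, *Cd200r2* and *F13a1* are shown because no array of a leukemia line overlapped the other line at the brightest probes of these genes. Those of *Ms4a2* and *Cpa3* are shown as examples of windows with hexamers, with the hexamers in capitals. *F13a1* has a second window, which is not shown.
*Il1rl1*, distal start, chr1:40429320-40429569, + strand: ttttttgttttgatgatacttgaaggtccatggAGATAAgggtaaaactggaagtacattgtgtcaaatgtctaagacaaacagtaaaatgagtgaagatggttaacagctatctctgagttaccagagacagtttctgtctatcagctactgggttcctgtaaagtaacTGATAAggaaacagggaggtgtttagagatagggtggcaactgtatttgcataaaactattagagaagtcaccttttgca
*Il1rl1*, proximal start, chr1:40439379-40439628, + strand: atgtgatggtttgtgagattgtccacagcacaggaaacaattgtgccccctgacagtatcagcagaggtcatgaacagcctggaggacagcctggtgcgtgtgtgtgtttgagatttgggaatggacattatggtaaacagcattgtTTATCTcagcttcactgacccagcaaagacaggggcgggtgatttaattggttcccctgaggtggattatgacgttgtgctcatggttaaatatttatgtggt
*Ms4a2*, chr19:11623720-11623969, - strand: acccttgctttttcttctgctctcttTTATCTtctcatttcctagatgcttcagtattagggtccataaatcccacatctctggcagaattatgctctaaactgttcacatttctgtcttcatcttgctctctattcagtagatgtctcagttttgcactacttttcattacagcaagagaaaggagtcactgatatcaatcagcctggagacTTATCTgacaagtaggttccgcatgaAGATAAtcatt
*Cpa3*, chr3:20242182-20242431, - strand: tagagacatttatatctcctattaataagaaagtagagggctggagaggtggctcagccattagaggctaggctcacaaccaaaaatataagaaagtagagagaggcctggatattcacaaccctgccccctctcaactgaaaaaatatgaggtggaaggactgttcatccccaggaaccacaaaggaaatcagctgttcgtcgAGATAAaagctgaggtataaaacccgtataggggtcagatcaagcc
*Cd200r2*, chr16:44866847-44867096, + strand: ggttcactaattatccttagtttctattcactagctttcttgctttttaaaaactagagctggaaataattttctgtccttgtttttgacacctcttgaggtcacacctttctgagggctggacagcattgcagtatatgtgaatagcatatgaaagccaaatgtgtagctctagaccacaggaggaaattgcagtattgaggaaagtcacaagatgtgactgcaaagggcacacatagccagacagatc
*F13a1*, chr13:37050245-37050494, - strand: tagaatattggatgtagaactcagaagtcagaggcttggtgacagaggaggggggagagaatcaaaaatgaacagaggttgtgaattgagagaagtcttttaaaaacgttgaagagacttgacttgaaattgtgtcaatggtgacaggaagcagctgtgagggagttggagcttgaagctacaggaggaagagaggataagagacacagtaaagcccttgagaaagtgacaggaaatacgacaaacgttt

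The window before the distal start of *Il1rl1* held hexamers 217 and 80 bases before the start, and that before its proximal start held a hexamer 103 bases before it. *Ms4a2* held 3, at 224, 37 and 11 bases, *Cpa3* 1 at 46 bases and *Fcer1a*, whose window is not shown, 1 at 92 bases. No hexamer was found in the windows of *Cd200r2*, *F13a1*, *Gzmb*, *Hdc*, *Kit* or *Gata2*. In all 5 of 14 windows of the 10 genes held a hexamer, beside 16.6% of the 32851 RefSeq promoter windows of the same length, and a match of letters is not a bound site.

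Among the receptors, *Il1rl1* had a signal at its brightest probe in J365-p20 and not in M0-p20. This probe, A_55_P2027737, read -6.74, -6.72, -6.80 and -6.84 on the M0-p20 arrays (replicates 0, 1, 2 and 3) and 0.76, -1.39 and -1.35 on the J365-p20 arrays (replicates 0, 1 and 3). It was not well above background on any of the 4 M0-p20 arrays and was above it on all 3 J365-p20 arrays. The level in J365-p20 was -0.66 ± 1.23 (SD, n = 3), and since M0-p20 gave only a bound, J365-p20 was at least 16.1-fold higher, or at least 9.82-fold without J365-p20 replicate 0, its brightest array. Bounds of this kind set the mean of the bright line against the higher of the probe's own value and the lowest signal well above background on each array of the dim line.

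The other probes of *Il1rl1* were dim. Probe A_55_P2027731, which belongs to the same transcript, was above background on M0-p20 replicate 1 alone among the parental arrays, at -1.43, and on J365-p20 replicate 0, at -3.77. Probe A_51_P339793, of a different transcript of the gene, was above background on J365-p20 replicate 0 only, at -4.24, with -5.45 and -6.62 on replicates 1 and 3. The M0-p20 arrays read lower still at this probe, -6.98 to -6.81, while at A_55_P2027731 the lines overlapped. The gene makes a membrane-bound and a soluble form of the receptor, and which form each probe reads was not settled here. The measured means differed by 6.12 at the brightest probe, by 2.62 over the mean of the 3 probes and by 2.51 at the brightest probe after normexp background correction, and each of these differences is set in part by the background level of M0-p20.

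*Cd200r2* encodes a receptor of the CD200 receptor family that pairs with the adaptor DAP12. Its single probe read -6.95, -4.99, -5.30 and -5.35 in M0-p20, not above background on any array, and 0.06, -0.31 and -0.27 in J365-p20, above it on each. The J365-p20 arrays lay close together (-0.18 ± 0.21, SD, n = 3) and at least 22.5-fold higher than M0-p20. The bound belongs to the scanner software's background subtraction, and with normexp correction the measured means differed by 2.78 on the log2 scale in place of 5.47. On each of the 3 slides, which carried arrays of both lines, *Cd200r2* and the brightest probe of *Il1rl1* were above background in J365-p20 and not in M0-p20.

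*F13a1*, the catalytic A subunit of clotting factor XIII and a product of monocytes, macrophages and megakaryocytes, went the opposite way. Its brightest probe read 3.32, 5.16, 4.87 and 4.75 in M0-p20 and -4.34, -1.85 and -1.82 in J365-p20, and it was above background on all 7 arrays. The difference of the means was -7.19 (standard error 0.93), with -6.97, -8.37 and -6.71 within the slides. The second probe, A_55_P2186125, read -2.79, -1.08, -1.28 and -1.10 in M0-p20 and was not above background in J365-p20, where it was at least 9.59-fold lower. Both probes thus had the lines apart, and replicate 0 was the lowest array of its line for each.

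**Figure D1:**
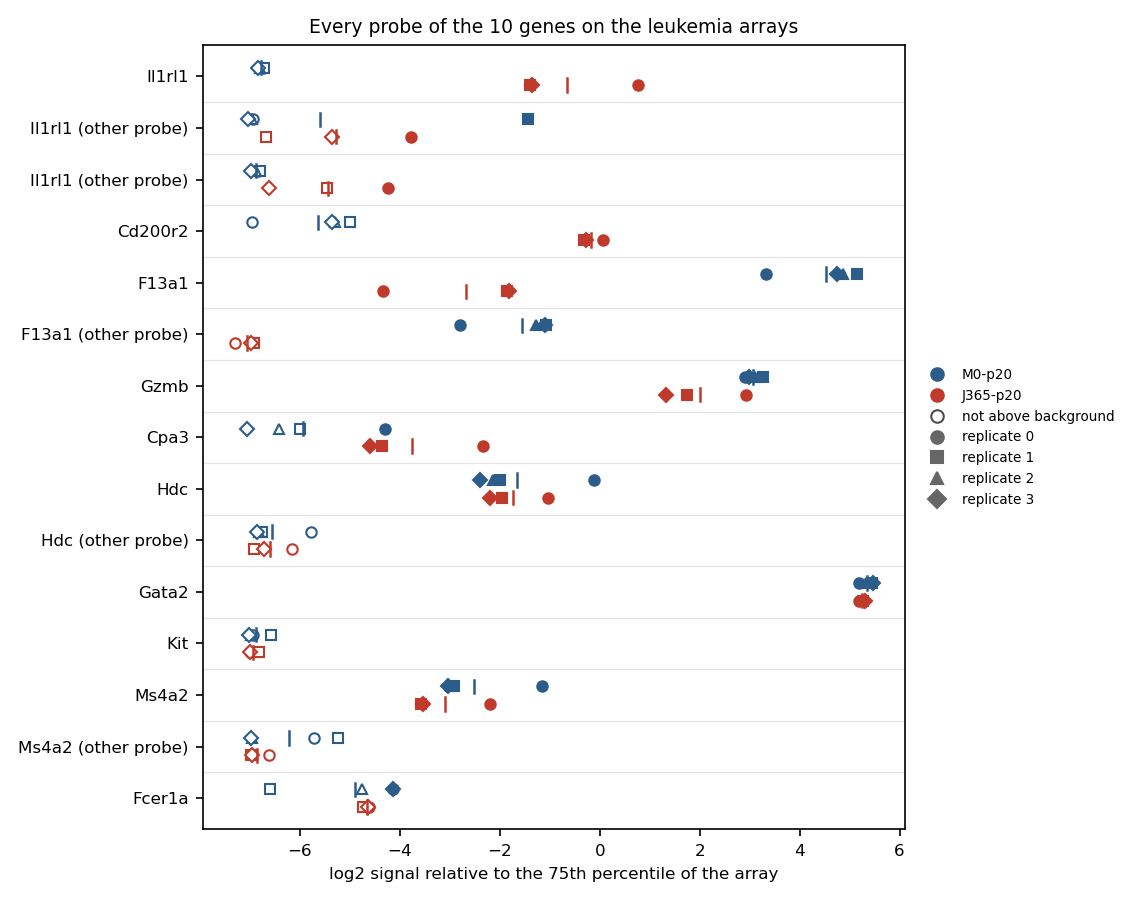
The x axis gives the log2 signal relative to the 75th percentile of the array for the 15 probes of the 10 genes on 4 M0-p20 (blue) and 3 J365-p20 (red) arrays; marker shapes give the replicate number, open markers a signal not well above background, and ticks the line means. *Il1rl1* (upper probe) and *Cd200r2* were above background in J365-p20 only, *F13a1* lay between 3.32 and 5.16 in M0-p20 and between -4.34 and -1.82 in J365-p20, and the arrays of the lines overlapped for *Gata2*.

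In the remaining 7 genes the lines overlapped or were at the background. For *Il1rl1*, *Cd200r2* and *F13a1* at their brightest probes no array of a line overlapped the other line, and among all 23036 genes tested 5.03% had every J365-p20 array above every M0-p20 array and 3.33% every array below. These shares are printed for scale only, since the genes were selected on this contrast.

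Of the granule genes, *Gzmb*, a serine protease of cytotoxic lymphocytes that mast cells also make, was measured on all 7 arrays, at 2.91, 3.28, 3.10 and 2.98 in M0-p20 and 2.94, 1.74 and 1.32 in J365-p20. Replicates 1 and 3 of J365-p20 lay below all parental arrays while replicate 0 lay among them, and the within-slide differences were -1.96, -0.01 and -1.37. *Cpa3*, the carboxypeptidase that is the hallmark of mast cell granules, was above background on M0-p20 replicate 0 (-4.30) and not on the other M0-p20 arrays (-6.01, -6.41 and -7.06), and above it on all J365-p20 arrays (-2.34, -4.35 and -4.60). Its difference of 2.18 (standard error 0.93) came with an overlap of the lines, since M0-p20 replicate 0 lay above J365-p20 replicates 1 and 3. With normexp background correction the difference was 0.55. Within the slides the difference was 1.41, 3.34 and 2.06.

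*Hdc*, the enzyme that makes histamine, read -0.12, -1.99, -2.14 and -2.40 in M0-p20 and -1.04, -1.95 and -2.19 in J365-p20 at the probe with a signal, a difference of -0.06 (standard error 0.63). In each line replicate 0 was the highest array. The second probe of *Hdc* was not above background on any leukemia array.

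The subunits of the IgE receptor differed in whether they could be measured. *Ms4a2*, the beta chain, read -1.15, -2.93, -2.99 and -3.05 in M0-p20 and -2.20, -3.57 and -3.54 in J365-p20, with a difference of -0.58 (standard error 0.64). Replicate 0 again stood above the other arrays of both lines, and its second probe was at the background throughout. *Fcer1a*, the IgE-binding alpha chain, was at the edge of detection, above background on M0-p20 replicates 0 and 3 (-4.13 on each) and on J365-p20 replicate 0 (-4.62). The other arrays read between -6.59 and -4.64 without passing, so no order of the lines can be read for it.

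*Kit*, the receptor for stem cell factor on which mast cells depend, was not above background on any of the 7 leukemia arrays, with values between -7.02 and -6.57. The array carries 1 probe for it, and that probe was above background on all 17 melanoma arrays, so it can report the transcript. *Gata2*, a transcription factor of stem cells, progenitors and mast cells, was measured on all 7 arrays, at 5.19, 5.44, 5.33 and 5.46 in M0-p20 and 5.18, 5.27 and 5.31 in J365-p20. Its difference was -0.10 (standard error 0.07).

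In all, 6 of the 10 genes were detected in M0-p20 and 8 in J365-p20, where a gene was detected if a probe passed the background on 50% or more of a line's arrays. Over all spots the share above background was 49.55% to 54.54% on the leukemia arrays. *Il1rl1*, *Cd200r2* and *Cpa3* counted in J365-p20 only and *Fcer1a*, at the edge of detection, in M0-p20 only. The genes were selected on this contrast, so the counts are a description and not a result about the lines. In the 5 melanoma lines 2 or 3 of the 10 genes were detected, *Gata2* and *Kit* in each and *Il1rl1* also in B16-D through a single dim probe on replicates 2 and 3. Without B16-D replicate 2 the count for that line was 2. Bulk RNA cannot tell whether a lower signal came from fewer cells with a transcript or from less of it in each cell.

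The melanoma lines, which are of the pigment cell lineage, served as the contrast outside the blood. This contrast of the mean of the 2 leukemia lines with the mean of the 5 melanoma lines does not use the difference between J365-p20 and M0-p20. With limma and Benjamini-Hochberg adjustment over 27570 genes, 36.6% of all genes were higher in leukemia and 29.9% lower, and the median difference over all genes was 0.17. Against that background *Gata2* was 8.54 higher in leukemia (standard error 0.15, adjusted p = 7.26e-21), although it was above background on all 17 melanoma arrays too, at -3.89 to -2.35. *Kit*, at the background in leukemia, was at least 14.2-fold higher in melanoma.

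The other 8 genes were above background on no more than 1 melanoma array at their brightest probes. They and *Kit* entered the fit through the lineage in which they are high, which fixes the direction, so they are described by bounds with no test. With B16-D replicate 2 left out, *Gzmb* exceeded melanoma by at least 254-fold in M0-p20 and 121-fold in J365-p20, and *F13a1* by at least 696-fold and 4.77-fold. *Hdc* exceeded it by at least 9.57-fold and 9.16-fold and *Ms4a2* by at least 5.26-fold and 3.53-fold. The J365-p20 bound of *F13a1* includes J365-p20 replicate 0, at -4.34 beside -1.85 and -1.82, and would be higher without it. No bound is given for *Cd200r2*, *Il1rl1*, *Cpa3* and *Fcer1a*, which were not above background on every leukemia array. B16-D replicate 2 was above background for 7 of these 8 genes at their brightest probes, all except *F13a1*, and no other melanoma array was for any of them. Its values were -1.81 for *Cd200r2*, -2.47 for *Ms4a2* and -3.37 for *Gzmb*, where the other 16 melanoma arrays reached at most -6.44, -6.48 and -5.31. Without that array the difference of *Gata2* was 8.60.

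**Figure D2:**
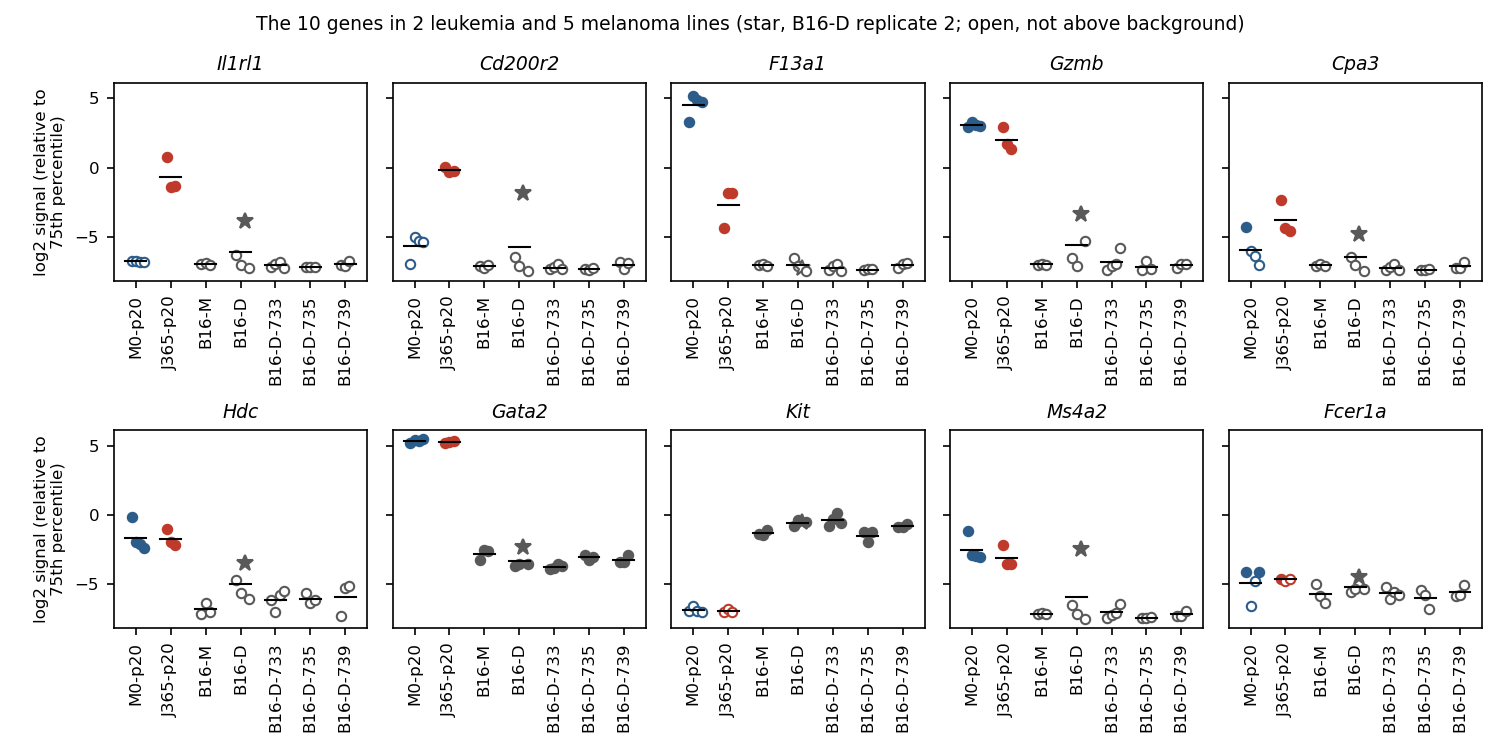
Each panel gives the log2 signal relative to the 75th percentile of the array for a gene at its brightest probe over 24 arrays, by line; bars are means, open markers are signals not well above background, and the star is B16-D replicate 2. *Kit* was above background in the 5 melanoma lines only, *Gata2* in all 7 lines with the leukemia lines between 5.18 and 5.46, and the star lies above the other melanoma arrays for *Cd200r2* (-1.81), *Ms4a2* (-2.47), *Gzmb* (-3.37) and *Gata2* (-2.35).

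Levels of *Kit* in melanoma were -0.39 ± 0.41 (SD, n = 4) in B16-D-733, -0.57 ± 0.20 (n = 4) in B16-D, -0.82 ± 0.11 (n = 3) in B16-D-739, -1.31 ± 0.19 (n = 3) in B16-M and -1.50 ± 0.41 (n = 3) in B16-D-735. Neighbours in this order overlapped except B16-D-739 and B16-M, whose arrays lay apart. For *Gata2* the order was B16-M (-2.80 ± 0.39), B16-D-735 (-3.07 ± 0.17), B16-D-739 (-3.25 ± 0.30), B16-D (-3.30 ± 0.64, or -3.62 ± 0.10 without replicate 2) and B16-D-733 (-3.74 ± 0.14), and each line overlapped its neighbours, although B16-D without replicate 2 no longer overlapped B16-D-739.

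To see whether other genes of these cell types differed between the leukemia lines, 22 lists were read in the same 7 arrays, the 10 genes left out. In limma, 115 of 23036 genes were higher in J365-p20 (0.499%) and 134 lower (0.582%) at an adjusted p under 0.05, or 1.08% in either direction. Of the 259 further genes on the lists 256 were on the array and 159 were tested. Of these, 5 were higher in J365-p20 (*Fcer1g*, *Il18rap*, *F5*, *Tph1* and *Cd200r4*) and 2 lower (*Itgax* and *Ngp*), 4.40% of those tested. *Il18rap*, *Itgax* and *Ngp* are in this count although they met the filter through a single line, which fixes their direction, and these include both of the lower genes. The lists were chosen with earlier results of these data known, so the shares of list genes are printed for scale only. The 159 genes had a median difference of 0.02 beside -0.02 over all genes. Without adjustment, 27 of the 159 and 1597 of all 23036 had a p under 0.05. Among the 27 are *Il18rap*, *Itgax*, *Ngp* and *Prg3*, whose direction was fixed by the filter.

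**Figure D3:**
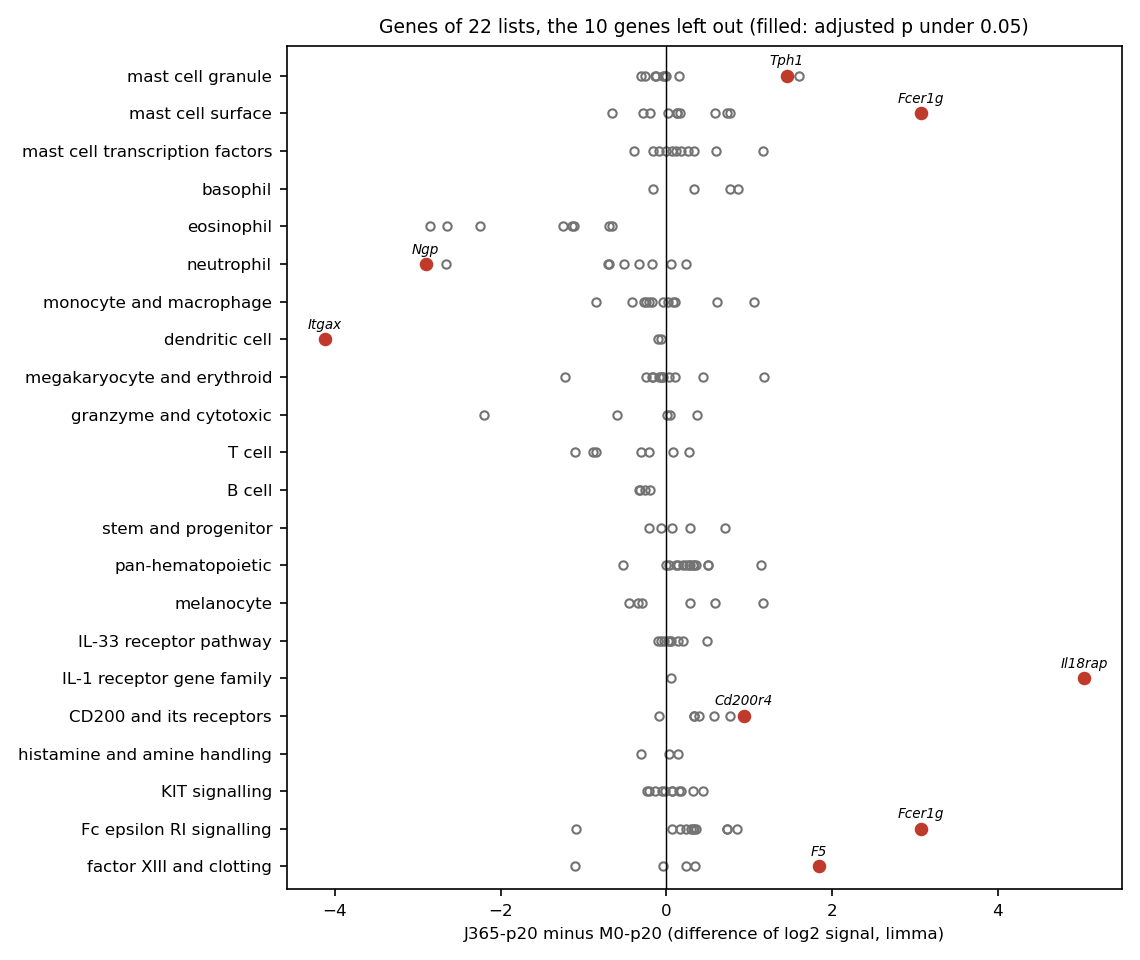
Each point is a gene of a list with its fitted difference of log2 signal, J365-p20 minus M0-p20, on the x axis; filled points had an adjusted p under 0.05 in limma over all 23036 genes. The filled points include *Fcer1g* at 3.07, *Il18rap*, which was at the background in M0-p20, and *Itgax*, which was at the background in J365-p20. The positions of the last 2 depend on the background level. All 8 tested eosinophil genes lay below 0 without passing. Of these, *Prg3*, *Ear2*, *Ear10* and *Il5ra* met the filter through M0-p20, which fixes their direction.

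Of the mast cell surface list, 1 of 11 tested genes was higher, none lower and 10 did not pass. The gene that passed was *Fcer1g*, the gamma chain that the IgE receptor shares with Fc receptors for IgG. It read -1.96, -1.19, -1.43 and -1.92 in M0-p20 and 1.47, 1.40 and 1.46 in J365-p20, and rose by 3.07 on the log2 scale (standard error 0.23, adjusted p = 0.000606 in limma). It stayed past the threshold in each of the 17 alternative analyses. Its probe was also above background on all 17 melanoma arrays. The receptors for IL-3 and its relatives, *Il3ra*, *Csf2rb* and *Csf2rb2*, had differences of 0.13, -0.20 and -0.28 and did not pass, and *Csf2rb* and *Csf2rb2* are near-identical genes whose probes may share signal. *Cd63*, a membrane protein of granules, read 6.17 in M0-p20 and 6.18 in J365-p20.

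Of 17 further mast cell granule genes on the array, 10 were detected in each line and 10 tested. *Tph1*, the enzyme of the first step of serotonin synthesis, rose by 1.45 (standard error 0.24, adjusted p = 0.0370), from -2.59 ± 0.40 (SD, n = 4) to -1.14 ± 0.09 (n = 3), and kept its call in 6 of 17 alternatives, while its 2 other probes were at the background. In limma with the slide as a block *Tph1* did not pass (adjusted p = 0.0619). The other 9 did not pass. They included *Srgn* (proteoglycan core, 0.16), *Alox5* (leukotriene synthesis, -0.13) and *Slc18a2* (vesicular amine transporter, -0.31), which read 5.04, 4.73 and 4.39 in M0-p20. Of the proteases, *Cma1*, a chymase, read 1.73, 0.84, 0.49 and 0.36 in M0-p20 and 3.72, 1.79 and 1.85 in J365-p20, with a difference of 1.60 that did not pass. *Mcpt1*, *Mcpt2*, *Mcpt4*, *Mcpt9* and *Tpsg1* were not above background on any leukemia array, and *Tpsb2*, a tryptase, was at -2.94 and -3.20.

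*Gzmb* and *Cma1* stand near the ends of a cluster of protease genes on chromosome 14. In between, *Gzmc* read 0.53 ± 0.80 (SD, n = 4) in M0-p20 and -1.67 ± 0.04 (n = 3) in J365-p20 and did not pass, with every J365-p20 array below every M0-p20 array. *Mcpt8* and *Ctsg* were above background on 2 and 1 of the 7 arrays, and *Mcpt1*, *Mcpt2*, *Mcpt9*, *Mcpt4*, *Gzme*, *Gzmd*, *Gzmg* and *Gzmf* on none. Genes of this cluster are alike in sequence, and how far a probe also reads its neighbours is not known from the files.

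Transcription factors of mast cells were detected without exception in both lines, 11 of 11 besides *Gata2*, and none passed. *Lyl1*, *Zfpm1* and *Gata1* read 6.18, 6.04 and 5.03 in M0-p20, with differences of 0.59, 0.12 and -0.09. *Mitf*, which mast cells and pigment cells share, was at 0.66 ± 0.42 (SD, n = 4) and 1.83 ± 0.70 (n = 3) and did not pass. Of the signalling genes downstream of KIT, 11 of 12 were tested and none passed, and *Kitl*, the gene of the KIT ligand, was not above background. Of the list of the IgE receptor and its signalling, 12 genes were tested and *Fcer1g*, a chain of the receptor itself already named above, alone passed.

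The list of the IL-33 receptor pathway, with *Il1rap*, the co-receptor, and the adaptor *Myd88* and its kinases, had 9 tested genes besides *Il1rl1* and none passed. *Il1rap* read -0.56 in M0-p20 and -0.51 in J365-p20, so that the co-receptor was measured in both lines, and *Il33* itself was not above background. Next to *Il1rl1* on chromosome 1 lie the other receptor genes of this family, in the order *Il1r2*, *Il1r1*, *Il1rl2*, *Il1rl1*, *Il18r1* and *Il18rap*. *Il18rap*, a chain of the IL-18 receptor, read -6.72, -6.72, -6.74 and -6.84 in M0-p20, never above background, and -1.80, -1.72 and -1.62 in J365-p20. It was at least 7.74-fold higher in J365-p20, with a measured difference of 1.65 after normexp correction in place of 5.04. It entered the test through J365-p20 alone, which fixes its direction, so no p is given. *Il18r1*, the ligand-binding chain, was above background on J365-p20 replicate 1 only, and *Il1r2*, *Il1r1* and *Il1rl2* on no leukemia array.

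The CD200 receptor genes lie together on chromosome 16 in the order *Cd200r1*, *Cd200r4*, *Cd200r2* and *Cd200r3*. *Cd200r4*, a relative that also pairs with DAP12, rose by 0.94 (standard error 0.16, adjusted p = 0.0387), from -2.87 ± 0.13 (SD, n = 4) to -1.94 ± 0.11 (n = 3), and kept its call in 5 of 17 alternatives. With the slide as a block in limma it did not pass (adjusted p = 0.0551). *Cd200r1*, the inhibitory receptor, read -0.08 ± 0.52 and 0.49 ± 0.26 at its brighter probe, with a difference of 0.30 at the other, and *Cd200r3*, known from basophils and mast cells, -3.43 ± 0.72 and -2.66 ± 1.46. Neither passed. The adaptors *Tyrobp*, which encodes DAP12, and *Dok2* differed by 0.33 and 0.39 and did not pass, and the ligand gene *Cd200* was not above background on any leukemia array.

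**Figure D4:**
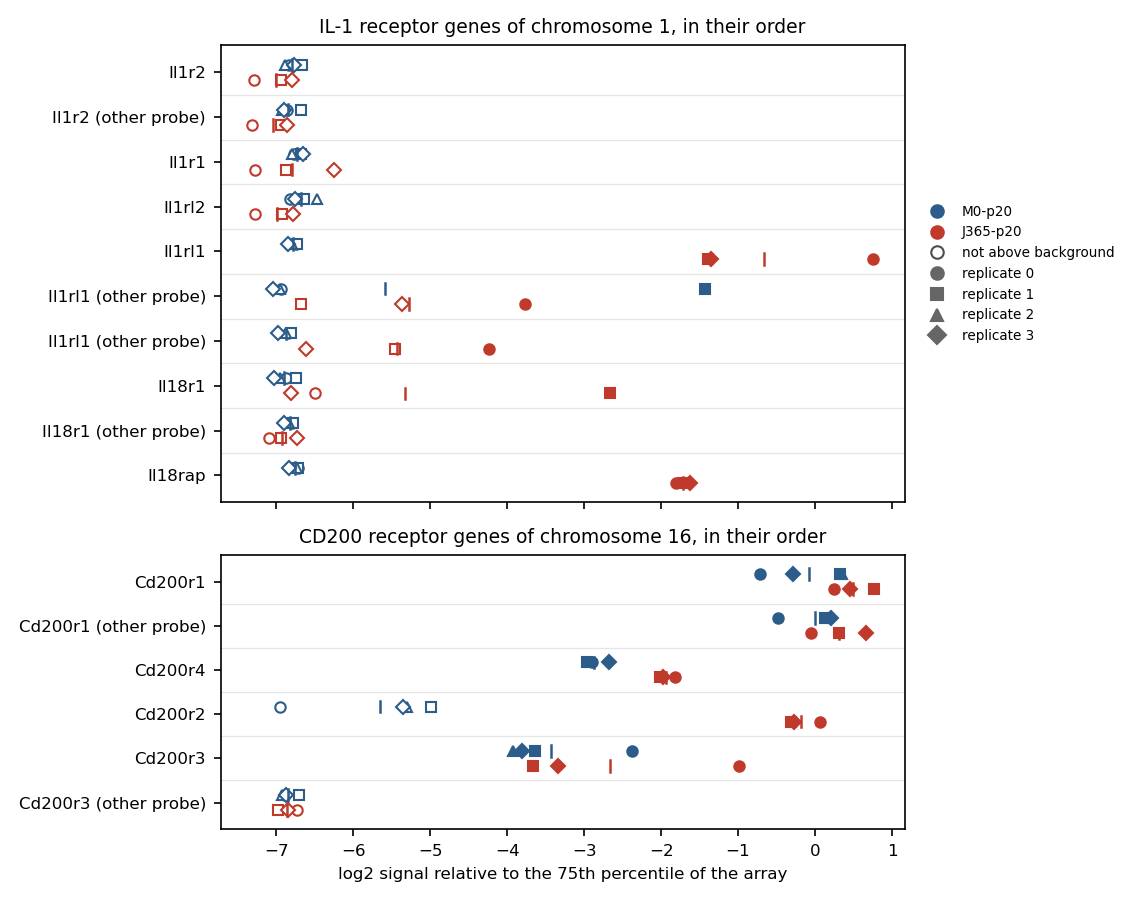
The log2 signal relative to the 75th percentile of the array is given for the probes of the IL-1 receptor genes (upper panel) and CD200 receptor genes (lower panel), in gene order, on M0-p20 (blue) and J365-p20 (red) arrays; shapes give the replicate and open markers a signal not above background. *Il1rl1* and *Il18rap* had a signal on all 3 J365-p20 arrays and their neighbours *Il1r2*, *Il1r1* and *Il1rl2* had none, while the genes around *Cd200r2* were measured in both lines.

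Beside *F13a1*, the genes of clotting were mostly alike. *F5*, clotting factor V, rose by 1.84 (standard error 0.28, adjusted p = 0.0245), from -1.61 ± 0.30 (SD, n = 4) to 0.23 ± 0.49 (n = 3), a call kept in 9 of 17 alternatives. It was lost in limma with the slide as a block (adjusted p = 0.0739). *F2r*, the thrombin receptor, *F10* and the tissue transglutaminase *Tgm2* read 7.32, 5.42 and 4.52 in M0-p20 with differences of 0.23, -0.04 and 0.35, and did not pass. *F13b*, the carrier subunit of factor XIII, was not above background in either line. Of 12 tested genes of monocytes and macrophages other than *F13a1* none passed, among them *Itgam* (-0.27), *Chil3* (-0.18) and *Csf1r* (-0.41). *Fcgr1* (1.06, with the lines apart) and *C1qb* (0.61) lay higher in J365-p20, and the median difference of the 12 was -0.11. *Fcgr1* passed in the fit of all 24 arrays and without M0-p20 replicate 0. At the same time *Cd14*, *Mrc1* and *Cd163* were not above background in either line.

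Granulocyte genes were read as markers of the neighbouring lineages. The neutrophil list had 9 tested genes, and *Ngp*, a granule protein of neutrophils, read -2.26, -1.82, -1.83 and -1.87 in M0-p20 and -4.56, -4.92 and -5.06 in J365-p20. It was above background on 1 of 3 J365-p20 arrays and met the filter through M0-p20, so no p is given. The measured difference of -2.90, which was -1.26 with normexp correction, depends on the background level. *Mpo*, myeloperoxidase, read 1.92, 1.69, 1.26 and 0.95 in M0-p20 and 0.55, -2.18 and -1.99 in J365-p20 and did not pass. *Csf3r* and *Cebpe* read 6.41 and 5.40 in M0-p20 with differences of -0.33 and -0.69. The mean over the 9 genes, *Ngp* included, was 0.20, 0.46, 0.52 and 0.43 on the M0-p20 arrays and -0.28, -0.49 and -0.59 on the J365-p20 arrays, while *S100a8*, *Ltf* and *Retnlg* were at the background throughout. Of the 22 lists, 9 had means with the lines apart, 6 higher in J365-p20 and 3 lower. The higher were mast cell surface, mast cell transcription factors, basophil, IL-1 receptor, CD200 receptor and IgE receptor signalling. The lower were neutrophil, dendritic cell and granzyme. These lists share genes, so they are not separate results. *Fcer1g* was in both the mast cell surface and IgE receptor signalling means, and *Cd200r3* in the mast cell surface, basophil and CD200 receptor means. The IL-1 receptor mean held 2 genes, of which *Il18rap* met the filter through J365-p20. That of dendritic cells held 3, of which *Itgax* met the filter through M0-p20. Some of these means include genes that met the filter through a single line, and the means were not tested.

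Of 11 eosinophil genes, 8 were detected in M0-p20 and 4 in J365-p20. None of the 8 tested genes passed, 4 had an unadjusted p under 0.05, and the median difference was -1.19. *Prg3*, *Ear2*, *Ear10* and *Il5ra* were each above background on 1 J365-p20 array and met the filter through M0-p20, which fixes their direction. The median, the unadjusted count and the mean of the list therefore rest in part on the filter. *Prg2*, major basic protein, read 3.08, 3.10, 2.86 and 2.52 in M0-p20 and 1.45, -0.71 and -0.65 in J365-p20, and *Epx*, eosinophil peroxidase, 2.30, 3.06, 2.65 and 2.44 against 1.91, -0.44 and -0.38. J365-p20 replicate 0 lay between the other J365-p20 arrays and M0-p20 for both. Over 18 alternatives *Prg2* passed in 4 and *Epx* in 3, each as lower in J365-p20. Without J365-p20 replicate 0, *Prg2*, *Epx* and *Mpo* passed, in a fit of all 24 arrays *Prg2*, *Epx* and *Prg3* did, with normexp correction *Prg2* did, and without M0-p20 replicate 0 *Gzmc* did. In the fit of all 24 arrays *Prg3* again met the filter through M0-p20, so its direction was fixed. With the arrays numbered 0 of both lines left out, an analysis chosen after seeing the data, *Prg2*, *Epx*, *Prg3* and *Ear6* passed as lower in J365-p20, 4 of 7 tested, as did *Mpo* and *Gzmc*, beside 127 of all 21914 genes tested in that setting. *Prg3* was then above background in M0-p20 alone, which fixes its direction within that count. The differences were then -3.51 for *Prg2* and -3.13 for *Epx*, from 3 arrays against 2. The *Ear* genes are near-identical copies whose probes may share signal. The mean of the 8 genes lay between -1.14 and -0.22 in M0-p20 and between -3.18 and -1.12 in J365-p20, whose highest array was replicate 0, and *Alox15* was at the background.

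**Figure D5:**
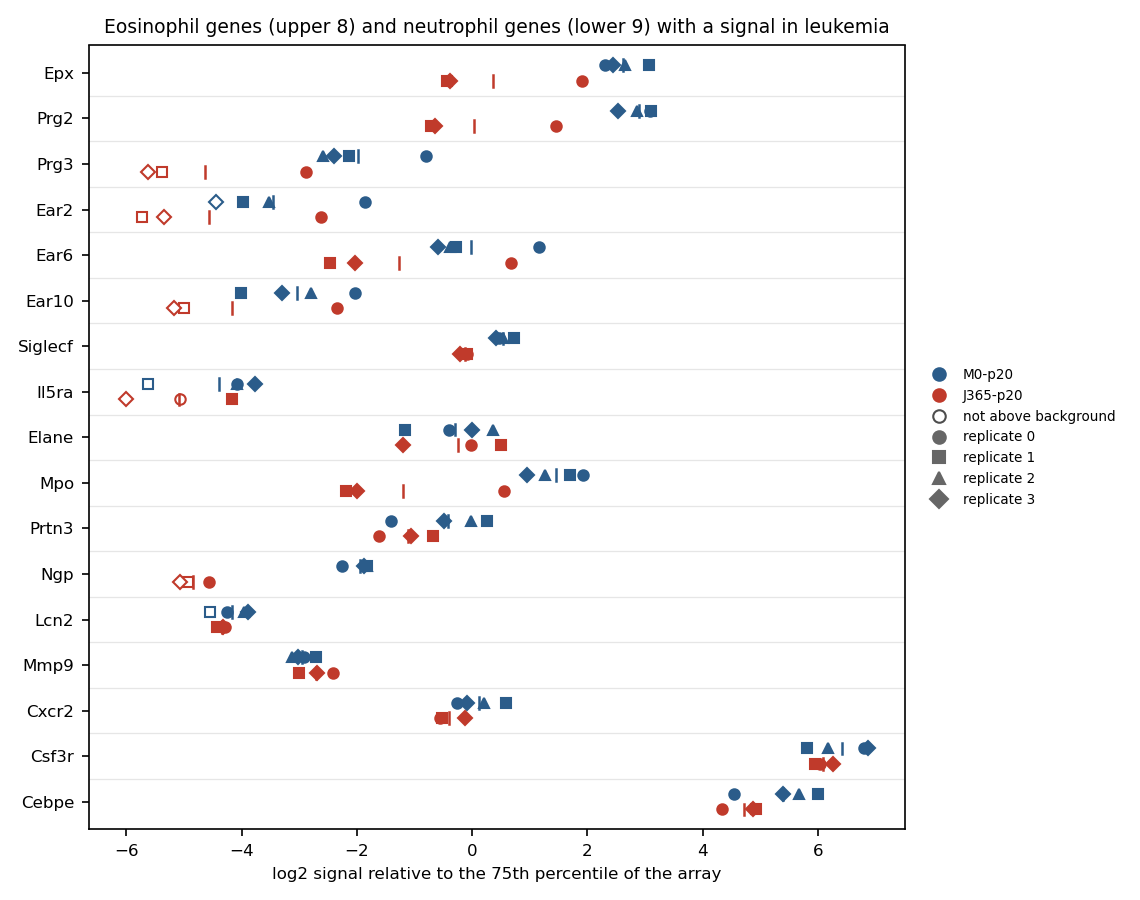
The log2 signal relative to the 75th percentile of the array is given for the tested eosinophil and neutrophil genes on M0-p20 (blue) and J365-p20 (red) arrays; shapes give the replicate, open markers a signal not above background and ticks the line means. For *Epx*, *Prg2* and *Mpo* J365-p20 replicate 0 (circle) lay between the other dormant arrays and the parental arrays, while the arrays of the lines overlapped for *Csf3r* and *Elane*.

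Among the genes of dendritic cells, *Itgax*, which encodes CD11c and also marks macrophages, read -2.96, -1.44, -1.65 and -1.79 in M0-p20 and was not above background in J365-p20, where it was at least 7.28-fold lower. It entered the test through M0-p20 alone, so no p is given, and with normexp correction the measured difference was -1.47 and did not pass. Its second probe was at the background in both lines. *Siglech* was at 6.35 and 6.29 and did not pass, and *Flt3*, *Xcr1* and *Clec9a* were at the background. None of the tested genes of the megakaryocyte and erythroid (12), T cell (7), B cell (4), basophil (4), stem and progenitor (5), granzyme (5), histamine (3) or melanocyte (6) lists passed. All 15 genes carried by blood cells in general, such as *Coro1a*, *Plek* and *Arhgdib*, were detected in both leukemia lines and 5 of 15 in each melanoma line, and none differed past the threshold. Of the 12 melanocyte genes, all were detected in each melanoma line, 6 in M0-p20 and 5 in J365-p20.

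Genes were also ranked by how closely they followed each of the 9 measured genes across the 7 leukemia arrays, over 12199 named genes. The closest to *F13a1* were *Itgax* (r = 0.996), *Ccm2l* (0.994) and *H2bc21* (0.992), and the closest to *Cd200r2* were *Slc6a4* (0.999), the serotonin transporter, *Slfn2* (0.995) and *Podnl1* (0.994). Those closest to *Il1rl1* were *Ccl3* (0.995), *Tfcp2l1* (0.995) and *Cth* (0.994), and those closest to *Gzmb* were *Clcn6* (0.979), *Epx* (0.979) and *Il6* (0.976). *Cpa3* was followed by *Supv3l1*, *Amz1* and *Mios*, *Hdc* by *Ccne1*, *Smpd4* and *Slc29a2*, *Ms4a2* by *Phlpp2*, *Ikbkb* and *Dbf4*, *Gata2* by *Safb2*, *Tlcd2* and *Gramd1c*, and *Fcer1a* by *Rhox3a*, *Klhl32* and *Bmp8a*. With 7 arrays such values are common, and from 29 genes for *Gzmb* to 528 for *Cpa3* had a correlation over 0.9. Genes that share a difference between the lines correlate for that reason alone, and for *Hdc*, *Ms4a2* and *Cpa3* the highest points were arrays numbered 0. *Fcer1a*, *Il1rl1* and *Cd200r2* were above background on 3 of the 7 arrays and *Cpa3* on 4, so their ranks rest in part on background values.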

How the data were processed

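Per the file headers and the submitters' processing notes, the authors scanned one-colour mouse 8 x 60k arrays with Agilent Feature Extraction 10.7.3.1 and deposited a background-subtracted intensity for every spot. The table deposited for the whole series holds these intensities unchanged. GeneSpring GX is named in the study's methods, without a test.

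Of 62976 spots an array, 3671 were controls. The 2468 spots flagged as outliers were dropped, none was saturated, and repeated spots of a probe were averaged. Log2 intensities were set relative to the 75th percentile of the 59305 measuring spots. Probes were joined to symbols through RefSeq accessions, and 22711 transcripts kept their identifier. A gene was read at its brightest probe in a comparison and tested where that probe was well above background on at least 3 arrays.

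Comparisons used limma 3.58.1 in R 4.3.3, two-sided, with Benjamini-Hochberg adjustment over all genes at a threshold of 0.05. The tests were run on simulated data, 50 genes for each size of change. For J365-p20 against M0-p20 (23014 genes) 20% were recovered at a log2 change of 1, 60% at 2 and 86% at 4, and for leukemia against melanoma (27498 genes) 78%, 86% and 100%. Precision is limited by the number of arrays.

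The 10 genes and the lists were chosen with earlier results of these data known. From the lists, the text names the genes past the threshold and up to 3 genes of highest mean, and for each measured gene of the 10 the 3 genes with the highest Pearson correlation. Other list genes it names were chosen after their values were seen.

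Alternatives were normexp background correction (offset 50), quantile normalization, the series table, single probes or their mean, other filters, the slide or the replicate number as a block, all 24 arrays in the fit, and each array left out. Since the files hold no mean spot signal, normexp used the median signal. Counts over 17 alternatives leave out the mean of all probes, and counts over 18 include it. The series table repeats the intensities of the main fit, so a call is kept there in advance. Leaving out both arrays numbered 0 was added after seeing the data. The title of the fourth B16-D-733 array repeats a replicate number, and the array was numbered 3. Each of the 3 slides held both leukemia lines and was scanned once.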

Additional observations from a re-analysis of the deposited data

Results flagged for a closer look

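In lines of 4 arrays, an array was marked where its gap to the nearest other array exceeded Dixon's critical value. This was looked at in 86 sets of 4 arrays and marked 9, where chance marks about 1 in 20. Of the 9, 7 were M0-p20 arrays, and 4 of these were replicate 0.

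Among the 10 genes, the probe A_55_P2027731 of *Il1rl1* read -1.43 on M0-p20 replicate 1, where the nearest other parental array read -6.94. The second probe of *F13a1* read -2.79 on M0-p20 replicate 0 against -1.28 for the nearest array, and *Ms4a2* -1.15 on M0-p20 replicate 0 against -2.93. In melanoma, the second probe of *F13a1* read -3.67 on B16-D-733 replicate 2 against -7.07, and *Gata2* -2.35 on B16-D replicate 2 against -3.56.

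Among genes of the lists, *Ngp* read -2.26 on M0-p20 replicate 0 against -1.87 for the nearest array and *Tgm2* 3.57 against 4.77. *Cd247* read 3.00 on M0-p20 replicate 1 against 4.06 and *Csf2rb* 6.08 against 5.65.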

How the results depend on the processing

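The number of genes past the threshold between J365-p20 and M0-p20, 249, was 106 where every array had to be above background, 392 in a fit of all 24 arrays, 120 with the replicate number as a block and 118 to 275 with an array left out, the lowest without J365-p20 replicate 1. It was 130 without J365-p20 replicate 0 (41 higher, 89 lower), 132 without its replicate 3 (41 and 91) and 163 without M0-p20 replicate 2. The main fit had 115 higher and 134 lower, and that without J365-p20 replicate 1 had 39 and 79. Leaving out both arrays numbered 0 gave 48 higher and 127 lower. The 7 list genes became 4 where every array had to be above background (*Il18rap*, *Itgax* and *Ngp* are then not tested), 4 with the slide as a block, 4 with the replicate block (*Fcer1g*, *Il18rap*, *Itgax* and *Ngp* in both), 10 in the fit of all 24 arrays (adding *Epx*, *Fcgr1*, *Lck*, *Mitf*, *Plcg1*, *Prg2* and *Prg3* and losing *Cd200r4*, *F5*, *Ngp* and *Tph1*) and 3 to 8 with an array left out. The lowest, 3, was without J365-p20 replicate 1 or 3, and it was 4 without M0-p20 replicate 2 or 3. *Il18rap* was not tested without a J365-p20 array. The number of the 10 genes with the lines apart, 3, was 3 to 6 with an array left out, namely 5 without J365-p20 replicate 0 and 6 without M0-p20 replicate 0, and 7 without both arrays numbered 0. The share of all genes with the lines apart moved too, from 8.37% to 12.5%, 15.7% and 20% in these settings. Between leukemia and melanoma the 18344 genes became 11265 where every array had to be above background, with fewer genes tested, and *Gata2* kept its direction and call in 29 alternatives. Taking any positive and significant signal as detected gave 4 of the 10 genes in B16-M, B16-D-733, B16-D-735 and B16-D-739 and 7 in B16-D. Same-numbered leukemia arrays had residual correlations of 0.51, -0.04 and 0.16 (numbers 0, 1 and 3), so the numbers were not taken as pairs. The arrays numbered 0 were on the same slide, with M0-p20 replicate 3, while those numbered 1 and those numbered 3 were on different slides. Whether the shared deviation of the arrays numbered 0 goes with the number or the slide was not tested. Where not named, the cause was not tested. Signals near the background limited *Kit*, *Fcer1a*, *Cpa3*, *Il1rl1* and *Cd200r2* in at least 1 leukemia line.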
